A study of Mus musculus with 16 samples.

Results

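Ank, Etl4, Gm13362 and Trpc4 are 4 genes that were taken by symbol from the 17951 genes listed in RNA-seq data of microglia sorted from mouse brain. They were chosen by their levels in these data, which rose in steps from wild-type (WT) microglia, through transgenic (TG) microglia without the amyloid dye, to TG microglia that carried it. Their levels and differences between these groups are therefore given as a description, with no test. Ank, Etl4 and Trpc4 carried their symbol in the deposited table, and Gm13362 was found through its identifier and the reference annotation. For Ank, Etl4 and Gm13362 every library of a later group lay above every library of the earlier one, as for 59 of all genes (0.329%). Gm13362 was at 0 reads in the 7 WT libraries, and Trpc4 was at 0 reads in these and in 4 of the 5 TG libraries without the dye.

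The study compared 3 groups of bulk libraries, 16 in all, each from cells sorted as CD11b+, CD45+ and CX3CR1+ from mouse brain. Microglia of WT mice, all without dye signal, gave 7 libraries from mice of 2 months by the labels. 5xFAD mice, a line that deposits amyloid in the brain and whose transgenes are driven by the neuronal Thy1 promoter, gave the TG libraries, from mice of 6 months by the labels. All mice, WT included, had been injected with Methoxy-X04 (Me-X04), a dye that enters the brain and binds amyloid, so that TG microglia could be split into cells that had taken up no labelled amyloid (TG Me-X04-, 5 libraries) and cells that had (TG Me-X04+, 4 libraries). By the labels, 4 animals gave both a TG Me-X04- and a TG Me-X04+ library. Genotype and age cannot be told apart in the comparisons with WT, and the study's methods state other ages than the labels do. The labels do not say whether the animals were pooled.

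Ank encodes a membrane protein of many tissues that is needed for the appearance of inorganic pyrophosphate outside cells, where pyrophosphate holds back mineral deposition, and its loss gives mice progressive ankylosis. Etl4, enhancer trap locus 4, also known as Sickle tail, encodes a coiled-coil protein required in the embryonic notochord for normal intervertebral discs. Trpc4 encodes a subunit of a cation channel of the TRPC family that opens downstream of phospholipase C-coupled receptors and lets calcium in. Gm13362 is an annotated antisense RNA on the strand opposite to Etl4 with no named function. Microglia in contact with amyloid are known for a disease-associated (DAM) programme in which genes such as Apoe, Cst7 and Lpl rise and homeostatic genes such as P2ry12 fall.

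The libraries held 15623664 to 27579017 reads on the listed genes. Mitochondrial genes took 11.0 to 24.1% of these reads in WT and, in the TG libraries, 18.2 to 35.6% without the dye and 27.2 to 44.8% with it, and thus moved with the groups. Its part in the results was not tested. The deposited level was log2 RPKM, that is log2 of reads per kilobase of exon and per unit of scaled library size, and a gene at 0 reads had a low fixed value that depended on its length. Of 8 microglia markers all were listed, and their summed level was 4529 to 6951 RPKM for WT, 3951 to 7950 for TG Me-X04- and 5046 to 7995 for TG Me-X04+. Fibroblast and T cell markers were not listed, while the neutrophil sum ranged from 0 to 12.3, 0.0893 to 25.6 and 0 to 20.6 RPKM in the 3 groups, and that of the 4 border macrophage markers, none of which passed the threshold in any comparison, from 1.94 to 4.64, 1.22 to 5.56 and 2.22 to 18.4 RPKM (limma, 0, 0 and 1 of 4 at an unadjusted p under 0.05). Single markers of 2 other cell types rose with the 4 genes in TG Me-X04+ over TG Me-X04-: Cspg4 by 4.24 ± 0.96 (SE, adjusted p = 0.01596) and Flt1 by 3.55 ± 0.69 on the log2 scale (SE, limma adjusted p = 0.006081). Pdgfra, Olig1 and Olig2, which with Cspg4 mark oligodendrocyte precursors, were not listed, nor were Cldn5 and Ly6c1, which with Flt1 mark endothelium. The other listed endothelial markers lay the other way in this comparison, Pecam1 at -2.47 ± 1.10 (SE, limma adjusted p = 0.2332) and Cdh5 at -2.41 ± 0.75 (SE, limma adjusted p = 0.07267), and over WT Pecam1 fell by 4.83 (limma adjusted p = 0.0036). The part of these cells in the results was not tested. In bulk samples fewer cells of a type and less RNA per cell cannot be told apart.

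Independently of group, the libraries fell into 2 sets along the leading component of their deviations from the group means, which held 37.8% of that variance. WT 1 to 3 and numbers 1 and 2 of both TG groups formed set A, and the other libraries set B. The study's methods name 2 sequencers, and which library was run on which is not given in the sources used here. Each gene below was therefore also compared within the sets.

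**Figure D1:**
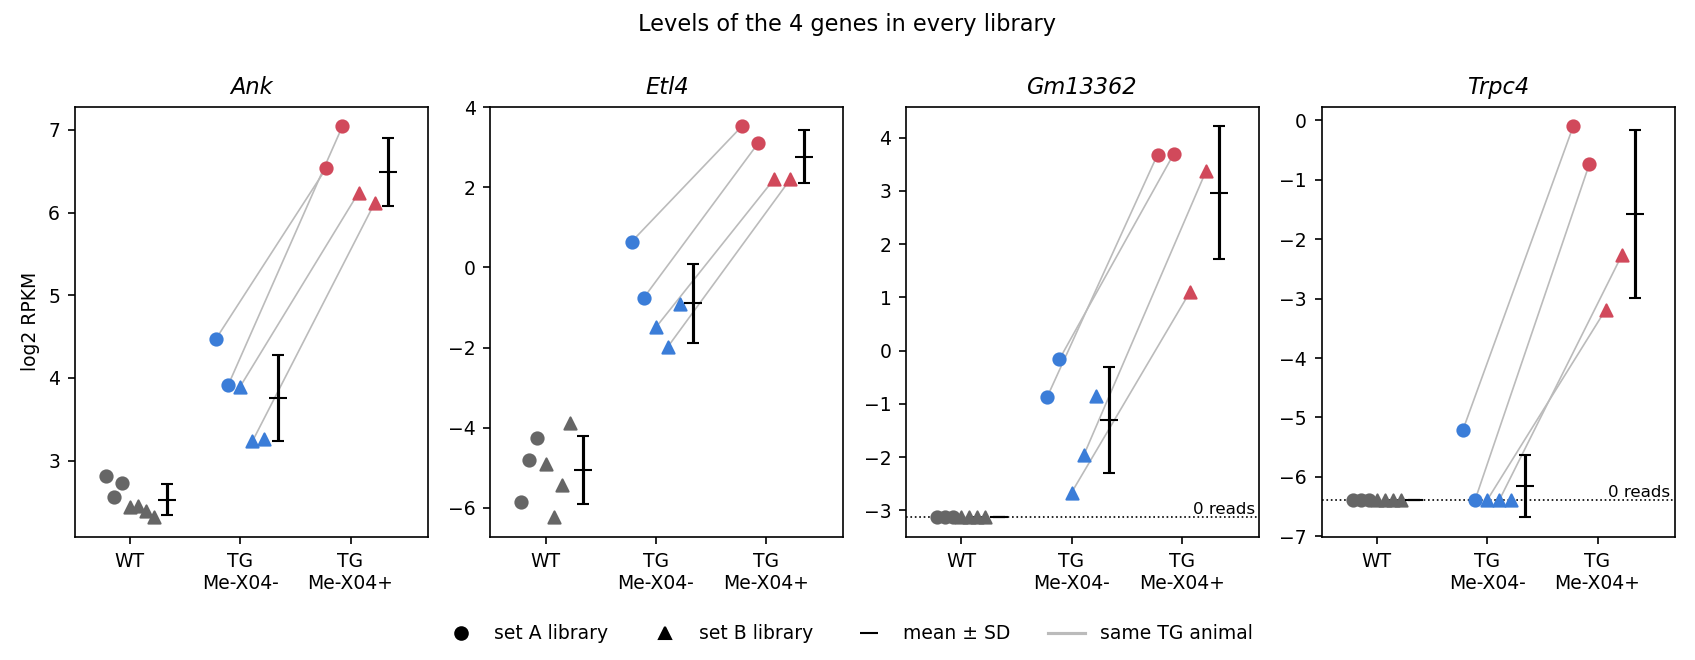
Level of Ank, Etl4, Gm13362 and Trpc4 (log2 RPKM, one panel a gene) in each library of the 3 groups, with group means and SDs as bars, set A libraries as circles, set B libraries as triangles and lines joining libraries of the same animal. Ank and Etl4 stepped up without overlap, Gm13362 left 0 reads in TG Me-X04-, and Trpc4 was above 2 reads only in the 4 TG Me-X04+ libraries.

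Ank (ENSMUSG00000022265, chr15:27466677-27594909 on the plus strand of GRCm38) was the only one of the 4 that WT microglia expressed well. It stood at a log2 RPKM of 2.31 to 2.82 in WT, with a median of 2.45 and 351 to 504 reads per library. TG Me-X04- libraries 1 to 5 were at 4.47, 3.91, 3.90, 3.23 and 3.26, with 1319, 1077, 1474, 855 and 849 reads. TG Me-X04+ libraries 1 to 4 reached 6.54, 7.05, 6.24 and 6.12, with 4434, 7134, 6251 and 5912 reads. The groups did not overlap: the lowest TG Me-X04- library lay 0.42 above the highest WT library, and the lowest TG Me-X04+ library 1.65 above the highest TG Me-X04- library.

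The group means of Ank were 2.53 ± 0.18 (SD, n = 7), 3.75 ± 0.52 (n = 5) and 6.49 ± 0.41 (n = 4) on the log2 RPKM scale. TG Me-X04- exceeded WT by 1.23 ± 0.22 (SE of the fit across all genes), or 2.45-fold in mean RPKM, and TG Me-X04+ exceeded TG Me-X04- by 2.73 ± 0.26, or 6.52-fold. Across both steps the rise was 3.96 ± 0.24. Most of it fell in the second step, since the first held 31.0% of the rise in log2 RPKM and 9.69% of the rise in mean RPKM, from 5.78 through 14.2 to 92.6. Within the 4 animals that gave both libraries, Ank was higher in the Me-X04+ library each time, by 2.07, 3.14, 2.35 and 2.89. In set A the steps were 1.49 and 2.60, and in set B 1.06 and 2.72, with no overlap of groups in either. It ranked above 68.2% of the listed genes among WT cells, above 87.3% without the dye and above 98.1% with it.

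Ank shares its exons with one small gene. Mir7117 (ENSMUSG00000098416, chr15:27571494-27571558, plus strand) is a microRNA locus of 65 bases that lies wholly inside exon 1 of Ank-202, a retained-intron transcript, and ends 1 base before exon 8 of the coding transcript Ank-201 (chr15:27571559-27571654). Reads on Mir7117 can therefore be reads of Ank RNA. The hairpin from RefSeq is shown because its reads cannot be separated from those of its host, with the mature arms in capitals.
Mir7117: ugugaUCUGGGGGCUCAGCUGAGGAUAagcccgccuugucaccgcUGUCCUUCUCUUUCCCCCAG
WT libraries held 0 to 5 reads of Mir7117, TG Me-X04- libraries 17, 9, 12, 7 and 7, and TG Me-X04+ libraries 57, 62, 60 and 53. Its level, 1.49 ± 0.51, 3.06 ± 0.65 and 5.67 ± 0.46 (SD), followed that of Ank. It rose by 1.57 ± 0.31 in the first step (SE, limma adjusted p = 0.04469) and by 2.61 ± 0.35 in the second (SE, limma adjusted p = 0.000493). The first call was kept in 6 of 27 alternatives and was lost with the replicate number as a block. Because these reads are shared, they are no independent measure of Ank.

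Etl4 (ENSMUSG00000036617, chr2:19909780-20810713, plus strand) spans 900934 bases, with 20 annotated transcripts, of which 11 are coding and begin at 8 distinct starts. In WT it was barely detected, with 3 to 24 reads per library, a median log2 RPKM of -4.92 and a range of -6.24 to -3.88, and 5 of the 7 libraries held more than 3 reads. TG Me-X04- libraries 1 to 5 held 412, 187, 154, 101 and 208 reads, at 0.64, -0.76, -1.50, -1.98 and -0.91. TG Me-X04+ libraries 1 to 4 held 2443, 2060, 1702 and 1746 reads, at 3.52, 3.10, 2.21 and 2.21. The groups were apart by 1.91 and 1.57 on the log2 scale, and every TG library was above every WT library.

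The group means of Etl4 were -5.06 ± 0.84 (SD, n = 7), -0.90 ± 0.99 (n = 5) and 2.76 ± 0.66 (n = 4) in log2 RPKM, or 0.0287, 0.653 and 7.33 in mean RPKM. The first step was 4.16 ± 0.54 (SE of the fit) on the log2 scale, or 22.7-fold in mean RPKM, and the second 3.66 ± 0.61, or 11.2-fold. Under the deposited scaling Etl4 was thus the only one of the 4 for which the first step was the larger in log2 RPKM, with 53.2% of the rise. In mean RPKM the first step held 8.55%. The order of the steps depended on the processing, with 3.79 and 3.86 under quantile normalization and 0.63 and 2.29 with log2(RPKM + 1). The full log2 difference between TG Me-X04+ and WT was 7.82 and ranked 3 among all genes from the top. In mean RPKM this difference was 255-fold. The log2 difference between TG Me-X04- and WT ranked 2. In the 4 animals the Me-X04+ library exceeded the Me-X04- library by 2.88, 3.86, 3.71 and 4.18. The steps were 4.92 and 3.37 in set A and 3.66 and 3.67 in set B.

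Gm13362 (ENSMUSG00000086418, chr2:20709375-20713234, minus strand) has 2 exons of 839 bases together and lies inside the Etl4 span on the other strand. Its start is 803.454 kb from the 5′ end of the Etl4 gene and only 76 bases from the start of a later Etl4 transcript, at position 20713311. Exon 1 (chr2:20712574-20713234, 661 bases) covers no Etl4 exon. Exon 2 (chr2:20709375-20709552, 178 bases) lies over 148 bases of a coding Etl4 exon of 199 bases (chr2:20709405-20709603), or 83.1% of its length. In all, 691 of the 839 exon bases, or 82.4%, are free of Etl4 exons. These bases still lie within the span of longer Etl4 transcripts, between their exons, where reads of unspliced Etl4 RNA could fall. The part of such reads was not tested. Exon 2 is printed 5′ to 3′ on the minus strand, from the transcripts of GENCODE M21 on GRCm38, because its reads could come from either gene, with the bases that are the complement of the Etl4 exon in capitals.
Gm13362 exon 2: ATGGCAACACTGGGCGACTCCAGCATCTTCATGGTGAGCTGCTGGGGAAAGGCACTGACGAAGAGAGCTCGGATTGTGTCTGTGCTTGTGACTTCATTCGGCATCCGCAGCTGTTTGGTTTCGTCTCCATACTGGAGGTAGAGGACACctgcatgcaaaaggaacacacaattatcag
The strand setting of the counting is not given in the sources used here. Without strand, reads on either exon of Gm13362 cannot be told apart from spliced or unspliced Etl4 RNA. Of the 790 overlapping 50-base words of Gm13362, 101 (12.8%) also occur in Etl4 transcripts, against 111 of 16322 words of Etl4 (0.68%) that occur in any other gene.

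**Figure D2:**
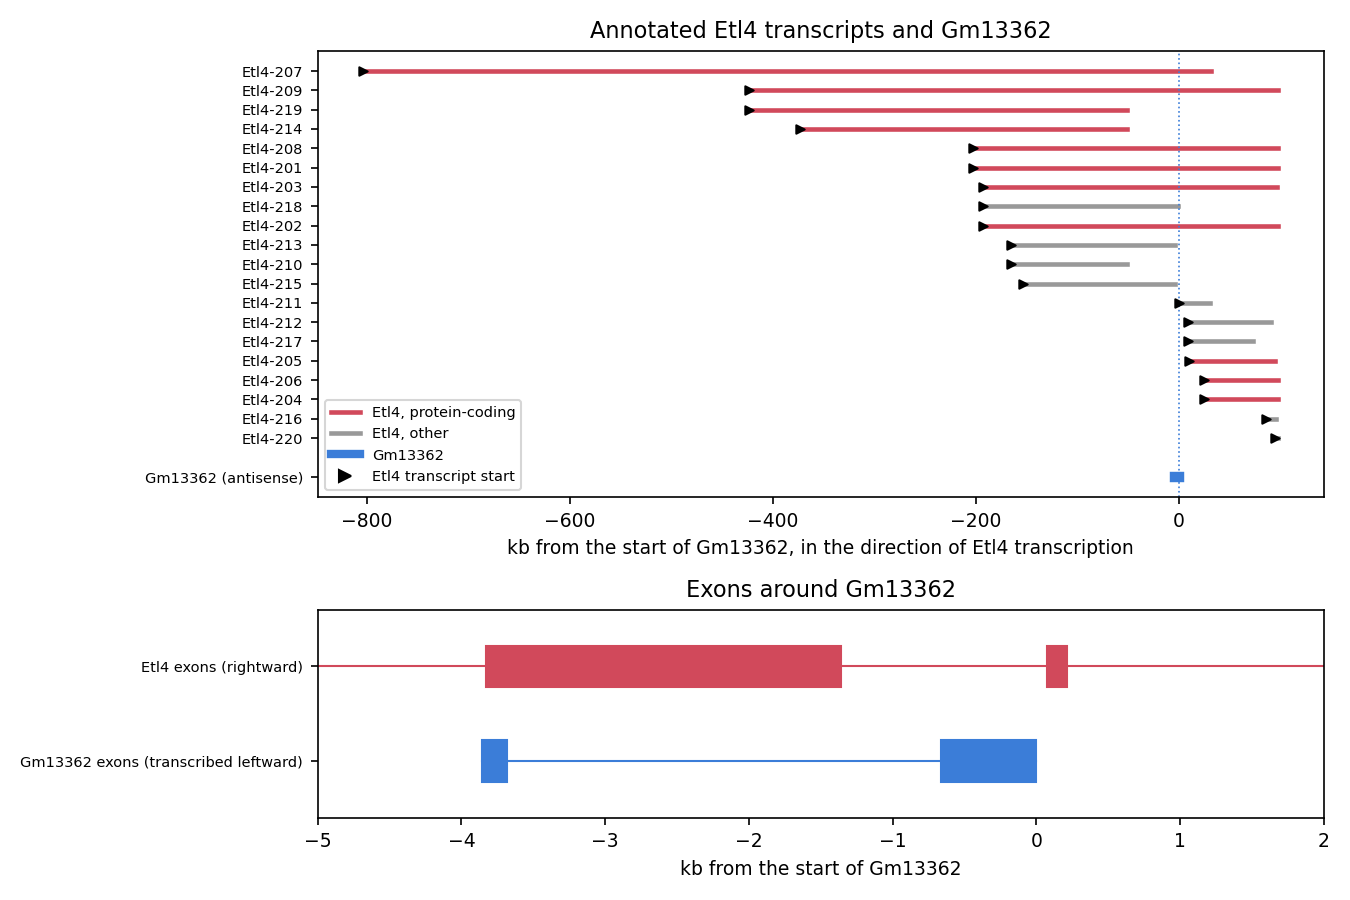
Upper panel, the spans of the 20 annotated Etl4 transcripts, one line each with an arrowhead at its start, and of Gm13362, against distance in kb from the start of Gm13362. The lower panel enlarges Gm13362 and the merged exons of all Etl4 transcripts beside it, where exon 1 (661 bases) lies outside Etl4 exons and 148 of the 178 bases of exon 2 lie over one.

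No WT library held a read of Gm13362. TG Me-X04- libraries 1 to 5 held 6, 13, 1, 3 and 9 reads, and 3 of these 5 were above the floor of 3 reads. TG Me-X04+ libraries 1 to 4 held 141, 161, 39 and 203 reads, so that the third was the lowest of its group at a log2 RPKM of 1.10 against at most 3.69. WT lay at the fixed value of -3.13 for 0 reads, TG Me-X04- at -1.31 ± 1.00 (SD, n = 5) and TG Me-X04+ at 2.96 ± 1.25 (n = 4). Groups did not overlap, by 0.46 and 1.26 on the log2 scale, although under quantile normalization the first gap turned to an overlap of 1.11 (a gap of -1.11). Against a floor of 3 reads in each WT library, mean RPKM was at least 2.04-fold higher without the dye and at least 52.7-fold higher with it. TG Me-X04+ exceeded TG Me-X04- 25.8-fold. The fitted steps were 1.83 ± 0.50 and 4.27 ± 0.58 (SE), and the first one depends on the value given to 0 reads. In the 4 animals the Me-X04+ library was higher by 4.55, 3.86, 3.77 and 5.35. The steps were 2.62 and 4.20 in set A and 1.30 and 4.07 in set B.

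The reads counted for Gm13362 were set against those counted for Etl4 as a description. The 2 counts are no separate measures where their reads cannot be assigned, and a difference of the ratio between groups was not tested. The TG Me-X04- libraries held 1.46, 6.95, 0.649, 2.97 and 4.33 Gm13362 reads per 100 Etl4 reads. The TG Me-X04+ libraries held 5.77, 7.82, 2.29 and 11.6. The ranges overlap, but in each of the 4 animals with both libraries the Me-X04+ one had the higher ratio. Summed over libraries there were 3.01 per 100 (32 of 1062) without the dye and 6.84 per 100 (544 of 7951) with it. WT had 0 Gm13362 reads beside 66 Etl4 reads, which allows up to 4.55 per 100, so a ratio like that of TG Me-X04- was not detectable at this depth. This floor covers counting error only. Per base of exon Gm13362 stood at 0.124 to 1.33 times Etl4 without the dye and 0.439 to 2.23 times with it, in RPKM.

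**Figure D3:**
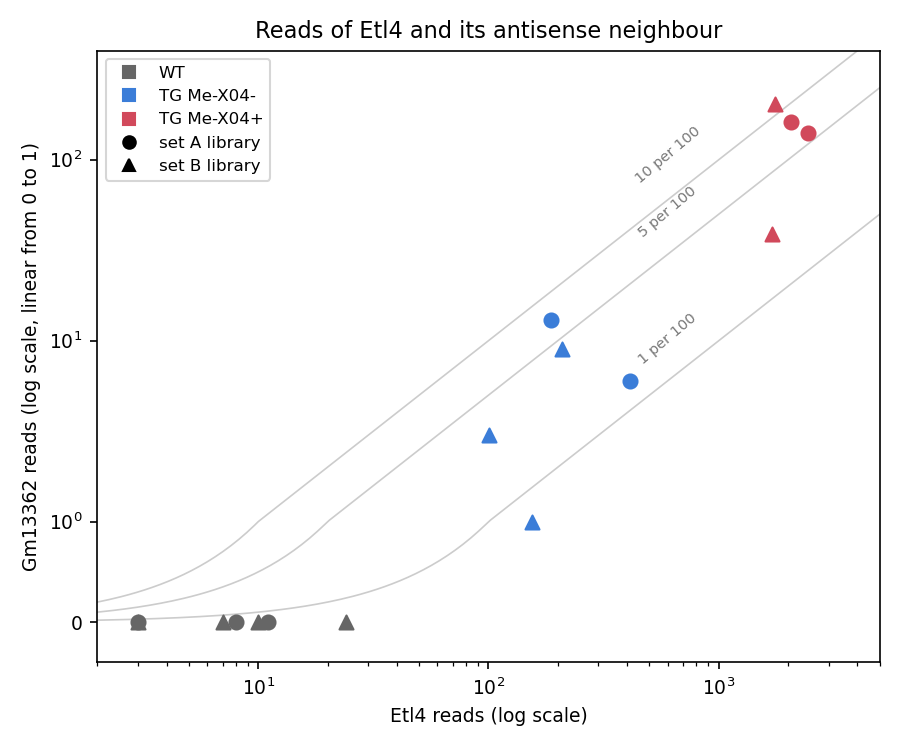
Gm13362 reads against Etl4 reads in each library, on log axes that are linear from 0 to 1 read for Gm13362, with grey lines at 1, 5 and 10 Gm13362 reads per 100 Etl4 reads. WT lies at 0 Gm13362 reads, and both TG groups spread between 0.649 and 11.6 per 100.

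Trpc4 (ENSMUSG00000027748, chr3:54156035-54318471, plus strand) was the lowest of the 4 and the one for which the step between the TG groups held nearly the whole rise. It had 0 reads in the 7 WT libraries and 2, 0, 0, 0 and 0 reads in TG Me-X04- libraries 1 to 5. The TG Me-X04+ libraries 1 to 4 held 98, 71, 18 and 37 reads, at a log2 RPKM of -0.10, -0.73, -3.19 and -2.27. TG Me-X04- and WT overlapped, and no fold is given between them since both were at or under the floor. TG Me-X04+ stood clear of TG Me-X04- by 2.02 on the log2 scale. Together the 4 Me-X04+ libraries held 224 reads against 2 in the 5 Me-X04- libraries, a ratio of scaled rates of 171. Its exact Poisson interval of 46.7 to 1418 (95%) covers counting error only. The interval pools libraries, leaves out the spread between them and is no test, since the gene was chosen by this step. Against a floor of 3 reads in each TG Me-X04- library, mean RPKM in TG Me-X04+ was at least 26.6-fold higher. Against the same floor in each WT library, the mean RPKM of Trpc4 in Me-X04+ cells was at least 24.1-fold higher.

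The mean Trpc4 level in TG Me-X04+ was -1.57 ± 1.41 (SD, n = 4), the widest spread of any group of the 4 genes. Libraries 1 and 2, of set A, were above libraries 3 and 4, of set B. In RPKM the level was 0.452, and it passed that of 13.5% of listed genes, against 71.9% for Etl4, 75.3% for Gm13362 and 98.1% for Ank. Within the 4 animals the difference was 5.11, 5.66, 3.20 and 4.12, and set A alone gave a step of 5.39 between the TG groups, against 3.66 from set B alone. No 50-base word of Trpc4 occurred in another annotated gene, so its reads had no competing source of that length in the annotation.

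Set against all genes, 59 of 17951 (0.329%) rose in both steps without overlap between the groups, among them Ank, Etl4 and Gm13362, and 17 (0.0947%) fell in this way. In TG Me-X04+ over TG Me-X04- alone, 861 genes (4.80%) rose without overlap, including all 4. In TG Me-X04- over WT 117 genes (0.652%) did, including all but Trpc4, and in TG Me-X04+ over WT 1177 (6.56%), including all 4. These counts use the contrasts by which the genes were chosen, and nothing is read from them. The 3 comparisons share groups. As a wider frame, 36 genes (0.201%) passed an adjusted p of 0.05 with an absolute log2 difference of 0.7 in TG Me-X04- over WT, 986 (5.49%) in TG Me-X04+ over TG Me-X04-, and 2562 (14.3%) between TG Me-X04+ and WT (limma, Benjamini-Hochberg). Of all genes, 34 (0.189%), 617 (3.44%) and 1481 (8.25%) were called higher and 2 (0.0111%), 369 (2.06%) and 1081 (6.02%) lower. The higher calls were 24, 182 and 690 of 28, 2092 and 4995 when libraries were scaled by all reads on listed genes, which moved the median difference of all genes in TG Me-X04+ over TG Me-X04- from -0.09 to -0.72. Relative to that median the rise of Ank was 2.83, of Etl4 3.75, of Gm13362 4.36 and of Trpc4 4.68 under the deposited scaling. Scaling by all reads moves every gene of a library by the same amount, so it cannot change these relative values.

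Within the WT libraries, a spread that the choice of genes did not use, only Ank and Etl4 could be related, since the other genes were at 0 reads. Pearson's r was -0.21 (exact permutation p = 0.644, n = 7) and Spearman's rho -0.29 (exact permutation p = 0.556, n = 7), both two-sided, and r was -0.36 without the 2 libraries farthest from the median of Ank. No relation was detectable over 7 libraries with few Etl4 reads, and with 1 pair the Benjamini-Hochberg value equals the raw p.

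The genes most like each of the 4 were listed by Pearson's r of log2 RPKM over the 16 libraries, as a description, since differences between the groups and the 2 sets enter r. For Ank they were Ctsb (r = 0.985), a lysosomal cathepsin, Csf1 (0.982), the ligand of the receptor on which microglia depend, Gm20721 (0.979), Gnas (0.978), the stimulatory G protein alpha subunit, and Gm16580 (0.975). Gm20721 overlaps Gnas on the other strand, so the pair may share reads. For Etl4 they were Lox (0.977), which crosslinks collagen and elastin, Baiap2l2 (0.972), Igf1 (0.969), a growth factor, Lgi2 (0.967) and Mamdc2 (0.963). For Gm13362 they were Csf1 (0.966), Gnas (0.965), Gm20721 (0.965), Arhgap26 (0.965) and Mamdc2 (0.963). For Trpc4 they were Gng12 (0.967), a G protein gamma subunit, Fgf2 (0.959), Rttn (0.955), Apbb2 (0.951) and Sulf2 (0.948), an extracellular sulfatase. Among the 4 genes r ran from 0.831 for Etl4 and Trpc4 to 0.954 for Ank and Gm13362, and it was 0.927 for Etl4 and Gm13362.

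Of the 5 genes nearest to Etl4, Lox, Baiap2l2, Igf1, Lgi2 and Mamdc2 shared its low WT level, with mean log2 RPKM of -5.82 to -3.26 for WT and 1.49 to 4.68 for TG Me-X04+. Those nearest to Trpc4 had WT means of 1.17 to 2.89 and TG Me-X04+ means of 3.12 to 4.97, so that none had its absence from WT. Those nearest to Ank were already at 0.80 to 6.92 in WT.

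Around Ank, 11 of 15 genes in a broad set for pyrophosphate and phosphate handling were listed. In TG Me-X04- over WT 1 of them rose (Spp1) and none fell. In TG Me-X04+ over TG Me-X04- 2 rose (Enpp1 and Spp1), and in TG Me-X04+ over WT 3 rose (Enpp1, Slc17a5 and Spp1). Xpr1, Slc20a1, Slc20a2, Ppa1, Ppa2, Phospho1, Lhpp and Nt5e passed in no comparison. The shares of all genes that rose were 0.189%, 3.44% and 8.25%. Medians of the 11 were 0.12, 0.28 and 0.34, against 0.01, -0.09 and -0.11 over all genes. Enpp1, which makes pyrophosphate from extracellular ATP, had 79 to 271 reads per WT library, 273 to 377 per TG Me-X04- library and 610 to 916 per TG Me-X04+ library. It rose by 1.44 ± 0.36 between the TG groups (SE, limma adjusted p = 0.02683) and by 2.12 ± 0.34 over WT (SE, limma adjusted p = 0.0003311). The first of these calls was kept in 13 of 24 alternatives and was lost with the replicate block and without any of 6 libraries taken singly, TG Me-X04- 3, 4 or 5 and TG Me-X04+ 1, 2 or 3. Slc17a5, a lysosomal sialic acid exporter, rose by 1.35 ± 0.26 over WT (SE, limma adjusted p = 0.00169). Spp1, the secreted phosphoprotein osteopontin, is also in the DAM list, and rose by 3.33, 3.70 and 7.02 in the 3 comparisons (limma adjusted p = 0.01083, 0.002325 and 6.937e-07). The first of its calls was kept in 22 of 27 alternatives. It was lost without TG Me-X04- replicate 1, with log2(RPKM + 1), under voom and in either set alone. The phosphate exporter Xpr1 differed by 0.60 ± 0.39 between TG Me-X04+ and WT (SE) and missed the threshold (limma adjusted p = 0.3521).

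For Etl4, 4 of 7 genes of its family and of the Src adaptor pathway were listed. Srcin1, its paralog, was not listed. None of Crkl, Crk, Src and Csk passed the threshold in any of the 3 comparisons by limma, with 0 at an unadjusted p under 0.05 and 0 by voom. Their differences in TG Me-X04+ over WT were -0.27 ± 0.20, 0.13 ± 0.21, -0.23 ± 0.53 and -0.02 ± 0.33 on the log2 scale (SE), and differences within such errors were not detectable.

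For Trpc4, 10 of the 27 other TRP channel genes were listed, and of its own TRPC subfamily Trpc2 alone. Trpc2, a pseudogene in humans that serves vomeronasal neurons in mice, was at no more than 43 reads in any library, with means of -3.01, -2.35 and -4.08. Of the 10 genes none passed in TG Me-X04- over WT (limma, 2 at an unadjusted p under 0.05, voom 0). Trpm1 alone rose between the TG groups, and over WT TG Me-X04+ had a rise of Trpm1 and a fall of Trpm4. The shares of all genes that passed in the 3 comparisons were 0.201%, 5.49% and 14.3%. The medians of the 10 were 0.12, -0.28 and -0.16, against 0.01, -0.09 and -0.11 over all genes. Trpm1, known as the channel of retinal ON bipolar cells, likewise had few reads before the last step: 0 or 1 per WT library, then 7, 14, 3, 4 and 15 without the dye and 143, 82, 369 and 123 with it. It rose by 4.30 ± 0.58 between the TG groups (SE, limma adjusted p = 0.0004932) and differed by 1.89 ± 0.51 between TG Me-X04- and WT without passing (SE, limma adjusted p = 0.2597). Trpm4, a calcium-activated channel for monovalent cations, fell by 1.45 in TG Me-X04+ over WT (SE 0.46, limma adjusted p = 0.04092), in 11 of 26 alternatives. Trpv4 was 2.13 higher in TG Me-X04- than in WT and missed the threshold (limma adjusted p = 0.1224).

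**Figure D4:**
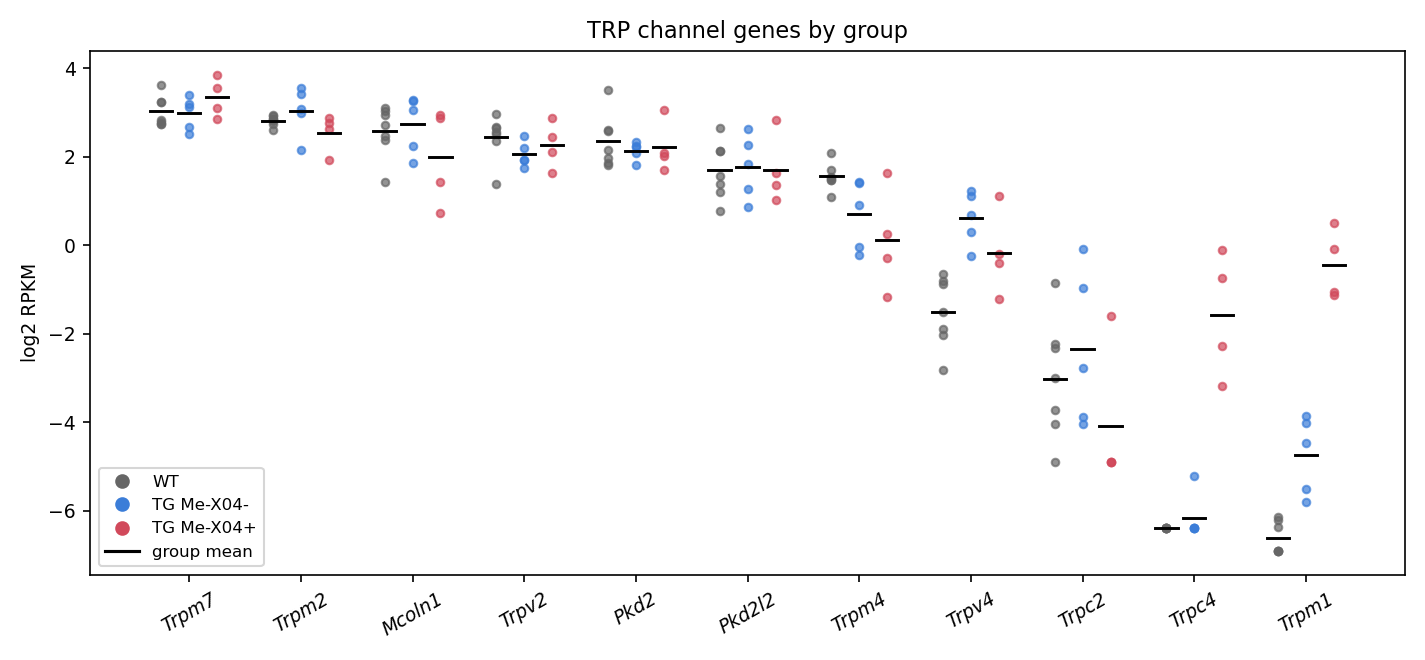
Level in log2 RPKM of the 11 listed TRP channel genes, Trpc4 included, in each library of the 3 groups, with group means as bars. Trpc4 and Trpm1 are near their value for 0 reads in WT and stand clear of it in all 4 TG Me-X04+ libraries.

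Genes of store-operated and receptor-operated calcium entry, the setting in which TRPC channels act, were mostly not called. Of 26 genes 23 were listed, and 0 passed in TG Me-X04- over WT and 0 in TG Me-X04+ over TG Me-X04- (limma, 0 and 1 at an unadjusted p under 0.05, voom 0 in both). In TG Me-X04+ over WT 1 fell and none rose, against 6.02% and 8.25% of all genes. The gene that fell was Plcg1, a phospholipase C that is activated by tyrosine kinases. It fell by 0.84 (SE 0.25, limma adjusted p = 0.03248), in 16 of 26 alternatives. The call was lost with the replicate block and without WT 4, 5, 6 or 7 or TG Me-X04+ 1, 2 or 3.

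Beside the known states of these cells, 25 DAM genes known to rise were taken from the study's own DAM panel, which also holds Ank. Of these 25, 9, 22 and 24 rose in the 3 comparisons, against 0.189%, 3.44% and 8.25% of all genes. The panel holds further genes, some of them, such as Serinc3 and Tgfbr1, counted here with the homeostatic genes, and the 25 were kept for their known rise, so the count is not independent evidence of a direction. Of 18 homeostatic genes 0 passed in TG Me-X04- over WT (limma, 2 at an unadjusted p under 0.05, voom 0). In TG Me-X04+ over TG Me-X04- 2 fell, and in TG Me-X04+ over WT 4 fell and 2 rose. The 2 that rose were C1qb, in 19 of 26 alternatives, and Ctss, in 25 of 26. Of all genes 0.0111%, 2.06% and 6.02% fell in the 3 comparisons. The microglia-enriched membrane protein gene Tmem119 fell by 1.58 in TG Me-X04+ over TG Me-X04- (limma adjusted p = 0.008209). P2ry12, the ADP receptor of resting microglia, fell by 0.97 over WT (limma adjusted p = 0.01851), a call lost without TG Me-X04+ replicate 4 and with median centring.

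Of the genes around the 4 loci most did not pass the threshold. Within 500 kb 22 other genes were listed, with medians of 0.01, -0.04 and -0.01 in the 3 comparisons. In TG Me-X04- over WT 1 of them rose (Mir7117, inside Ank), in TG Me-X04+ over TG Me-X04- 1 rose (Mir7117) and 1 fell, and in TG Me-X04+ over WT 2 rose and 3 fell. Among all genes 0.201%, 5.49% and 14.3% passed in these comparisons. Otulinl, the neighbour of Ank downstream, fell by 0.99 between the TG groups (SE 0.17, limma adjusted p = 0.002551) and in the comparison with WT fell by 1.31 (limma adjusted p = 3.238e-05), against the rise of Ank. Otulin, a deubiquitinase gene that overlaps the Ank span on the other strand, differed by 0.20 ± 0.34 over WT (SE). Trio, a guanine nucleotide exchange factor gene on the same side, fell by 0.82 over WT (limma adjusted p = 0.02068). This call was lost without TG Me-X04+ replicate 2, with the replicate block and in set A alone.

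On the Etl4 side Otud1, a deubiquitinase gene upstream, rose by 1.61 ± 0.44 over WT (SE, limma adjusted p = 0.01961), a call lost without TG Me-X04+ replicate 1 or 2. Arhgap21, downstream, differed by 0.07 ± 0.31 (SE). Gm13328, a processed pseudogene inside the Etl4 span on the other strand, had mean levels of -0.18, 0.75 and -0.58 and passed in no comparison. Near Trpc4, Postn, a matrix protein gene, differed by -0.98 ± 0.50 over WT (SE, limma adjusted p = 0.2162), and Gm21958 fell by 1.03 (limma adjusted p = 0.0434), in 13 of 26 alternatives.

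**Figure D5:**
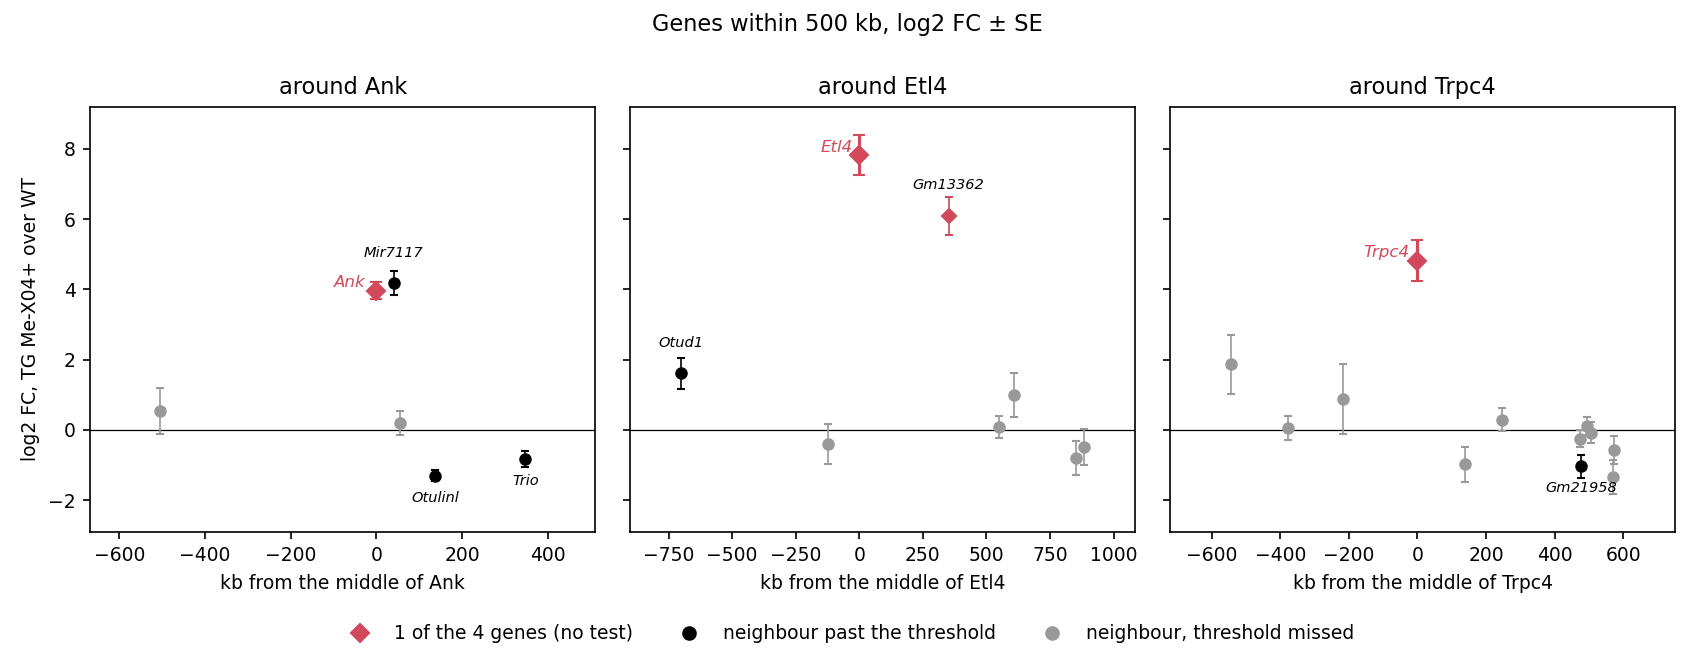
Log2 difference between TG Me-X04+ and WT, with its SE, of listed genes whose span lies within 500 kb of Ank, Etl4 or Trpc4, against the distance in kb between gene middles. Diamonds are the 4 described genes, for which no test was made, black points are neighbours past the threshold and grey points those that missed it. Apart from Mir7117 inside Ank and Gm13362 inside Etl4, the neighbours lie between -1.35 and 1.87, below the gene in the middle.

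The promoter windows of the 3 coding genes are shown because these genes rose together and are built differently at their starts. RefSeq (GRCm38.p6) held 5 windows for 3 of the 4 genes, each from 250 bases before a start to 50 after it, and none for Gm13362. Capitals mark matches, on either strand, to 6 motifs, namely CACGTG (an E-box, in 7.15% of all 32851 windows), GAGGAAGT (a PU.1 motif, 3.2%), TGANTCA (AP-1, 7.81%), TATAAA (13.6%), CCAAT (37.4%) and GGGCGG (a GC box, 35.7%).
Ank, chr15:27466427-27466726: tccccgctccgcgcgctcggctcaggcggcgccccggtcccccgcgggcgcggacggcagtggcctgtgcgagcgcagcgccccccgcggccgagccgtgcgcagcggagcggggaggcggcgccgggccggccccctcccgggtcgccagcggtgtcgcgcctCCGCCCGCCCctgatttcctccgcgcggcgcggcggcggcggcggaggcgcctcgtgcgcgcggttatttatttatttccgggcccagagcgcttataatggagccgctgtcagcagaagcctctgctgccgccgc
Etl4, chr2:20509797-20510096: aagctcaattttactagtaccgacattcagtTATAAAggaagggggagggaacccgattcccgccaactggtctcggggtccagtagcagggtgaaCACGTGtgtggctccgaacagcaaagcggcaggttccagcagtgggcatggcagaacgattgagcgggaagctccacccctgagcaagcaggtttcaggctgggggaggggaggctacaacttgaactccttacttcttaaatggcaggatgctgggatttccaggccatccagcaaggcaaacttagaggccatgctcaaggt
Trpc4, chr3:54155807-54156106: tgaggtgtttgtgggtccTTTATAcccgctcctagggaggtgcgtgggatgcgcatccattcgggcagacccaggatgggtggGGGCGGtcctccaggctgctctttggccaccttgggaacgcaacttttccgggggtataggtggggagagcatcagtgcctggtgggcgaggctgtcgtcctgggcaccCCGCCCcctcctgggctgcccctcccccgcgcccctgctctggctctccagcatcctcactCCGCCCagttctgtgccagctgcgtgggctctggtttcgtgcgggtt
The Ank window, with 78% G and C and 53 CpG, had a higher share of G and C than 98.06% of windows, and its capitals are 2 overlapping GC boxes at -86 and -82. The Trpc4 window, with 66% and 16 CpG, had GC boxes at -167, -58 and 4 and TATAAA on the minus strand at -232. The Etl4 window shown, with 54.67% and 9 CpG, held CACGTG at -154 and TATAAA at -219. Only this window of Etl4 is printed, and it does not stand for the other Etl4 starts. Of the other Etl4 windows, one (chr2:20519263-20519562) held CCAAT and the other (chr2:20289663-20289962) none of the 6. No window of the 3 genes held the PU.1 or the AP-1 letters. A match is a description of letters, and which Etl4 start the reads came from was not tested, since the values are per gene.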

How the data were processed

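RNA was amplified (Ovation RNA-Seq System V2) and made into libraries with the Ovation Ultralow kit. Per the labels and the methods the authors trimmed reads with Trim Galore 0.4.4, aligned them with STAR 2.5.4b to GRCm38, counted them per Gencode M16 gene with featureCounts, tested counts with edgeR 3.24.3 and deposited log2 RPKM. The deposited log2 values were turned back into whole reads (100% within 0.01 of a whole number, with 2 prior reads at the mean library), and 15623664 to 27579017 reads per library set the precision.

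The deposited log2 RPKM were fitted with limma 3.58.1 (R 4.3.3, trended variance, all 3 groups in 1 fit, two-sided, no covariate), in place of a count test because of their unit. Calls needed a Benjamini-Hochberg adjusted p under 0.05 over 17951 genes and an absolute log2 difference of at least 0.7. The fit was tested on simulated data with known changes. The 4 genes and all lists were chosen with earlier results of these data known. Named genes were the 4, the 5 most correlated with each, called list members and neighbours, TRPC genes, Srcin1 and genes inside a span of the 4. Symbols came from the table for 12919 genes and from GENCODE M21 (GRCm38, a later release than that of the counting) for 4874. Folds against 0 reads used a floor of 3 reads per library. Same-numbered TG libraries come from the same animal by the labels, and their deviations from the group means correlated at 0.292 to 0.329 in the 4 pairs, against 0.221 to 0.332 for other numbers of the same set. The replicate block fitted the replicate number, which stands for the animal only among TG libraries. WT and TG libraries of the same number, from different animals by the labels, shared a block. Alternatives were other scalings, pseudocounts, filters, weights, voom on the recovered reads, a term for the set and leaving out libraries. Columns of the authors' own comparisons were not used. Genes without a symbol (158) stayed in the fit.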

Additional observations from a re-analysis of the deposited data

Results flagged for a closer look

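A library that stood apart from the rest of its group was sought by Dixon's ratio, the gap to the nearest library over the range of the group, in 22 groups of 4 to 10 libraries. There were 2 such groups, and chance alone gives about 1 in 20. In TG Me-X04+ the level of Gm13362 had a ratio of 0.878, because replicate 3 held 39 reads against 141, 161 and 203 in the others. In TG Me-X04- the level of Trpc4 had a ratio of 1, because replicate 1 held 2 reads and the other 4 libraries none.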

How the results depend on the processing

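All 4 genes kept positive differences in every comparison and alternative, apart from Trpc4 in TG Me-X04- over WT, which rests on 2 reads in 1 library. Values are given in the order TG Me-X04- over WT, TG Me-X04+ over TG Me-X04- and TG Me-X04+ over WT. With log2(RPKM + 1) the differences shrank to 0.63, 2.29 and 2.92 for Etl4, to 0.39, 2.64 and 3.03 for Gm13362, and in the last 2 comparisons to 0.49 and 0.50 for Trpc4. Under voom they were 3.21 (first) and 7.92 (last) for Gm13362 and 6.20 and 6.53 (last 2) for Trpc4. For Ank scaling by all reads gave 2.11 and 3.32 in the last 2 comparisons, and quantile normalization 3.55 in the last. With a minimum mean log2 RPKM of 0, Etl4, Gm13362 and Trpc4 were filtered out and gave no value. Leaving out each library in turn gave 1.05 to 1.36, 2.55 to 2.91 and 3.77 to 4.08 for Ank, 3.77 to 4.42, 3.39 to 4.05 and 7.56 to 8.01 for Etl4, 1.54 to 2.17, 3.93 to 4.89 and 5.85 to 6.72 for Gm13362, and 0 to 0.30, 4.09 to 5.12 and 4.33 to 5.36 for Trpc4. With the replicate number as a block, which stands for the animal only among TG libraries, the differences were 1.15, 2.65 and 3.81 for Ank. They were 4.32, 3.53 and 7.85 for Etl4, 1.83, 4.32 and 6.15 for Gm13362 and 0.24, 4.55 and 4.79 for Trpc4.

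Of all genes, 36 were called in TG Me-X04- over WT, but 175 with array weights, 13 with log2(RPKM + 1), 19 with a minimum mean of 0, 18 with the replicate block, 101 with a term for the set, 0 in set A and 19 in set B, where set A had 2 TG Me-X04- libraries. In TG Me-X04+ over TG Me-X04- 986 became 470 with only these groups fitted, 2142 with the set term, 2092 scaled by all reads, 85 in set A and 2262 in set B. In TG Me-X04+ over WT 2562 became 3919 with the set term, 4995 scaled by all reads and 1652 in set A. Leaving out libraries gave 19 to 33, 552 to 1021 and 2124 to 2605. The first count fell most without TG Me-X04- replicate 1 (19), 3 (23) or 4 (23), and the second without TG Me-X04- replicate 5 (552) or TG Me-X04+ replicate 2 (624). Scaling by reads outside mitochondrial genes gave 249 higher and 948 lower calls in TG Me-X04+ over TG Me-X04- and 1009 and 2070 in TG Me-X04+ over WT, and quantile normalization 421 and 407 in the former. Genes called in the lists and among the neighbours numbered 10, 28 and 40, but 6 scaled by all reads, 0 in set A and 6 in set B in the first comparison, and 8 in set A in the second, while leaving out libraries gave 5 to 9, 24 to 28 and 35 to 40. Within WT, r of Ank and Etl4 was 0.038 after median centring and -0.498 to 0.166 without single libraries, and turned positive without WT 1 (0.127) or 7 (0.166). The block ended the calls of Enpp1 between the TG groups, of Trpm4, Plcg1, Trio and Gm21958 over WT, and of Mir7117, Itgax and H2-D1 in TG Me-X04- over WT, all among the named genes. In the comparisons with WT it joined libraries of different animals. The causes were not tested. Levels under about 3 reads, as for Trpc4 and Gm13362 in WT, limit any statement on absence.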
